A study of Mus musculus with 12 samples.

Results

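The lysyl oxidase family comprises 5 mouse genes, Lox, Loxl1, Loxl2, Loxl3 and Loxl4, among 24341 genes named in the deposited count table. The members were taken by name, and where a gene had several RefSeq accessions the accession with the highest mean level stood for it. Loxl1 (NM_010729), Loxl2 (NM_033325), Loxl3 (NM_013586) and Lox (NM_010728) had enough counts to test, whereas both accessions of Loxl4 were listed at 0 in all 12 libraries. Of the 4 tested members, only Loxl2 passed the test, and in 1 comparison: its RNA was 1.63-fold lower at PPE week 2 than at PPE week 1. That call was lost when counts were scaled by library size alone, and when the libraries' content of a ribosomal RNA precursor entered the model. This content differs between the groups, so it and the groups cannot be fully told apart.

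The libraries came from aortas of male C57BL/6J mice aged 10 weeks at the experiment, 4 separate animals in each of 3 groups. In the PPE week 2 group, porcine pancreatic elastase (PPE), a protease that breaks down elastin so that the vessel wall widens, had been infused into the infrarenal segment, with harvest at day 14. The PPE week 1 group received the same infusion and was harvested at day 7. The saline group was infused with saline in that segment and harvested at day 7, so PPE week 2 differs from saline in both the infusion and the day. The labels name the tissue only as aorta, without saying how much of the vessel around the infused segment was taken.

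Lysyl oxidases are secreted enzymes that need copper and oxidise lysine and hydroxylysine side chains of elastin and collagen. The aldehydes they form react with neighbouring side chains into the covalent cross-links that make elastic fibres recoil and collagen fibres resist tension. In mice, loss of Lox leads to arterial aneurysm and rupture around birth, and loss of Loxl1 leaves elastic fibres poorly renewed in the adult. Loxl2, Loxl3 and Loxl4 carry scavenger receptor domains ahead of the catalytic domain, and Loxl2 also acts on type IV collagen of basement membranes.

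The 4 sequences shown here encode the stretch of the catalytic domain that binds copper, the feature that makes these genes 1 family. Each is 33 bases long and was read 5′ to 3′ from the coding strand of a GENCODE M21 transcript on GRCm38. Capitals mark bases identical in all 4 members.
Loxl1: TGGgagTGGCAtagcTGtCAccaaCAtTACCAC
Loxl2: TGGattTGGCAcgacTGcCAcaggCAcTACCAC
Loxl3: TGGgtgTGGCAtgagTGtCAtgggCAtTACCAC
Loxl4: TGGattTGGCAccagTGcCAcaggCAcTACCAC
The motif searched for reads tryptophan, any residue, tryptophan, histidine, any residue, cysteine, histidine, any residue, histidine, tyrosine, histidine, and its 4 histidines include those that hold the copper. Among 21877 protein-coding genes translated in 3 frames, 5 held it, and these were the 5 family members. Of the 33 positions, 20 were identical in the 4 sequences. Loxl2 and Loxl4 were identical at 31 positions, Loxl1 and Loxl4 at 21. In each gene an intron interrupts the stretch, which spans chr9:58293720-58294381 on the minus strand for Loxl1, chr14:69682316-69689037 on the plus strand for Loxl2, chr6:83049995-83050125 on the plus strand for Loxl3 and chr19:42598807-42599899 on the minus strand for Loxl4.

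On GRCm38, Loxl1 occupies chromosome 9 from 58287723 to 58313212 on the minus strand, and its transcript has 7 exons. Loxl2 occupies chromosome 14 from 69608692 to 69695834 on the plus strand, with 14 exons. Loxl3 occupies chromosome 6 from 83034205 to 83052566 on the plus strand, with 14 exons. Loxl4 occupies chromosome 19 from 42592279 to 42612806 on the minus strand, and Lox lies on chromosome 18. The longest run of bases shared by any pair of member transcripts was 11 to 32 over the 10 pairs, so reads of 1 member would seldom match another over their whole length. The library kit does not record strand, and 535 exonic bases of Loxl3 lie opposite the protease gene Htra2, where the reads of both genes cannot be told apart. Loxl2 shares 301 exonic bases with the antisense gene Gm27177.

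Levels are given as CPM, counts per 1000000 counts of a library, scaled by TMM, a factor that corrects for a few very abundant RNAs. The total count per library was 8343313 to 12269131. The ribosomal RNA precursor NR_046233 made up 19.5 to 22.1% of all counts at PPE week 2, 21.0 to 34.6% at PPE week 1 and 36.2 to 49.9% in saline. Differences were tested with edgeR's quasi-likelihood test over all 12 libraries, and a gene was called when its p, adjusted by Benjamini-Hochberg over 12756 tested accessions, was under 0.05. Apart from the authors' own table, the shares of all accessions called are edgeR's. Counts called by the tools DESeq2 or limma-voom, or at an unadjusted p under 0.05, are given without such a share. Because RNA of whole tissue was measured, fewer cells of a type and less RNA per cell cannot be told apart.

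Loxl2 had 149, 209, 175 and 173 CPM in the 4 PPE week 2 libraries. It had 338, 319, 217 and 277 CPM in the 4 PPE week 1 libraries. It had 217, 223, 213 and 217 CPM in the 4 saline libraries. Every PPE week 2 library was below every PPE week 1 library and below every saline library, although the highest of them, replicate 2, came close to the lowest of each other group. Of the PPE week 1 libraries, 3 were above all saline libraries, and replicate 3 of PPE week 1 lay within the saline range.

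Between the PPE weeks the log2 fold change of Loxl2 was -0.71 ± 0.14 (SE; 95% interval -1.005 to -0.41), or 1.63-fold lower at PPE week 2, with an interval of 1.33 to 2.01-fold. The adjusted p was 0.00690 by edgeR, rank 210 of 12756 accessions. Of the 4 tested members, 1 was called in this comparison and it was lower, against 6.59% of all accessions called in either direction and 2.82% called lower. A separation without overlap and with the later week lower, as Loxl2 showed, was found for 8.68% of all accessions. DESeq2 and limma-voom also called Loxl2 and no other member.

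The 2 differences against saline share the same 4 saline libraries, and neither passed the test for Loxl2. At PPE week 2 against saline the log2 fold change was -0.30 ± 0.14 (95% interval -0.60 to -0.0047; adjusted p = 0.292 by edgeR). At PPE week 1 against saline it was 0.40 ± 0.14 (95% interval 0.11 to 0.70; adjusted p = 0.0930). Without replicate 3 of PPE week 1, the second difference was 0.52 and was called, with an adjusted p of 0.0400. In the authors' deposited table its adjusted p was 0.0433 at PPE week 1, with a log2 fold change of 0.38, and 0.323 at PPE week 2, with -0.29. That table had 17.4% of its accessions under 0.05 at PPE week 1 and 3.83% at PPE week 2.

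**Figure D1:**
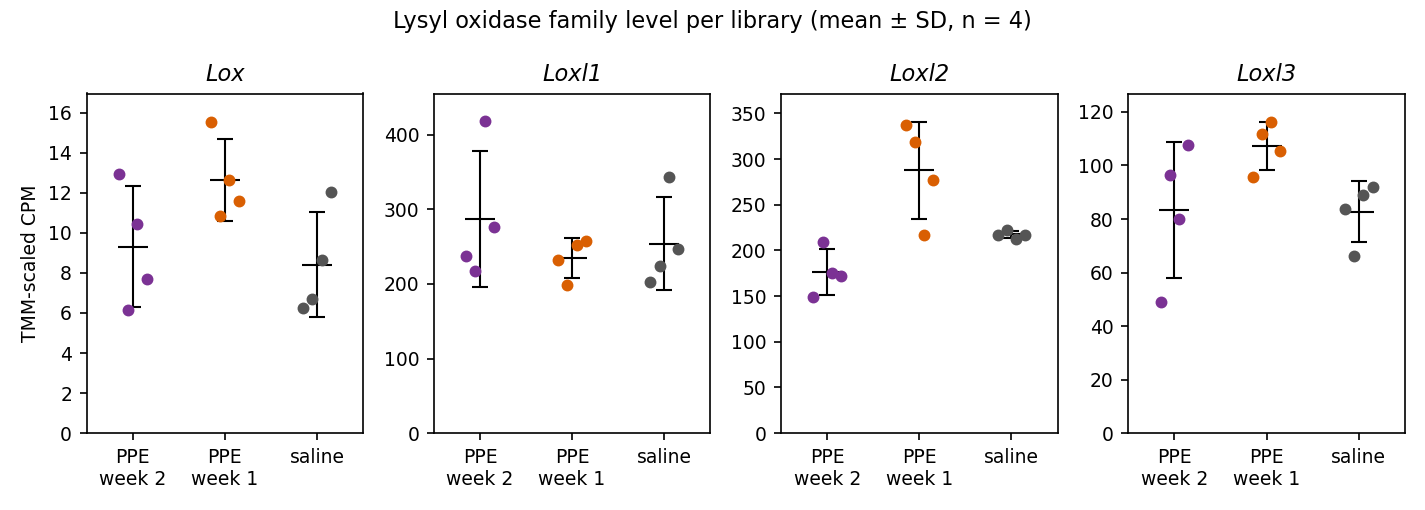
Level of each tested lysyl oxidase gene in TMM-scaled CPM (vertical axis, from 0) at PPE week 2, PPE week 1 and in saline. Points are libraries, horizontal marks are group means and bars are the SD of 4 libraries. For Loxl2 the PPE week 2 points, 149 to 209 CPM, lie under the PPE week 1 points, 217 to 338 CPM, while the groups of Lox and Loxl1 overlap in every comparison.

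Loxl2 varied least in saline, where its coefficient of variation was 1.87%, against 14.1% at PPE week 2 and 18.6% at PPE week 1. Counting error alone gives a coefficient of 2.39% at the depth of the saline libraries. Within PPE week 1, replicate 3 had both the lowest Loxl2 level and the lowest share of the ribosomal RNA precursor, 21.0%, close to the PPE week 2 libraries. With that share as a covariate, the Loxl2 difference between the PPE weeks was -0.52 ± 0.19 and its adjusted p was 0.234. Calls of several listed genes were lost with this covariate too, as given below. Some of their fold changes stayed about as large, and others, such as that of P4hb, were smaller. The Loxl2 difference was smaller too, against -0.71 without the covariate. Without TMM, on library size alone, the Loxl2 difference was -0.47 and its adjusted p 0.0985. That scaling moved the median of all accessions by 0.23 in this comparison, and relative to this median Loxl2 stood at -0.70.

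**Figure D2:**
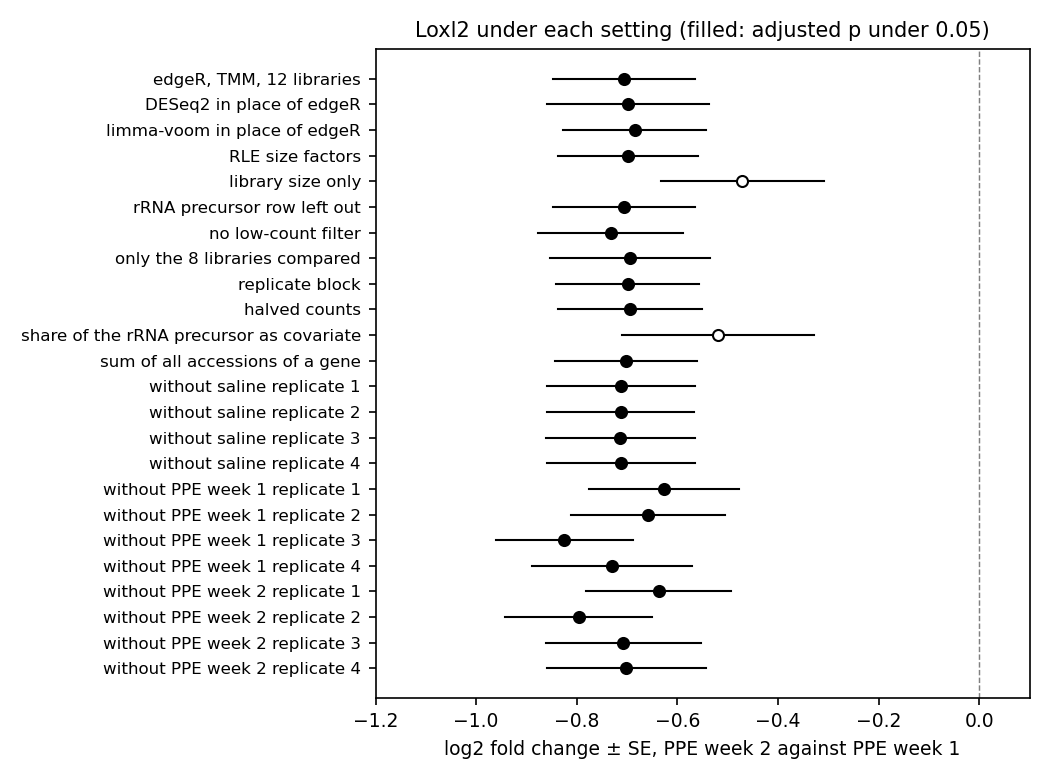
Log2 fold change of Loxl2 at PPE week 2 against PPE week 1 (horizontal axis, with bars of 1 SE) under the edgeR model and 23 alternatives (rows). Filled points have an adjusted p under 0.05, as 21 of the 23 alternatives do, and the 2 open points are library size alone, -0.47, and the ribosomal precursor share as covariate, -0.52.

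The cell type markers moved between the same groups. Beside the marker counts stand the shares of all accessions called by edgeR. These were 6.59% between the PPE weeks, and 2.65% at PPE week 2 and 7.89% at PPE week 1 against saline. The summed level of 10 smooth muscle markers was 5755 to 12582 CPM at PPE week 2, 2045 to 3725 CPM at PPE week 1 and 6950 to 8957 CPM in saline. The groups did not overlap between the PPE weeks, where 8 of the 10 were called higher at PPE week 2 and 0 lower. The same number, 8 of 10, were called lower at PPE week 1 than in saline, and 0 of 10 were called at PPE week 2 against saline by edgeR, with 0 at an unadjusted p under 0.05 and 0 by DESeq2 or limma-voom. Smooth muscle RNA was thus present in every library, under the label aorta.

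The summed level of 8 macrophage and monocyte markers was 1097 to 2860 CPM at PPE week 2, 3530 to 4551 CPM at PPE week 1 and 1941 to 2305 CPM in saline. All PPE week 1 libraries were above all others. Of the 8, 2 were called lower at PPE week 2 than at PPE week 1 by edgeR, 5 by DESeq2 and 7 by limma-voom. Against saline, edgeR called 2 higher at PPE week 1, DESeq2 7 and limma-voom 3, and at PPE week 2 each of these tools called 0, with 1 lower at an unadjusted p under 0.05. Itgam was listed at 0 and Cd163 had 10 counts in all, so neither was tested. Loxl2 and the macrophage markers were thus both lower at PPE week 2 than at PPE week 1, and the smooth muscle markers higher, and their part in the Loxl2 difference was not tested.

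The summed level of 10 adventitial fibroblast markers was 1295 to 1753 CPM at PPE week 2, 1128 to 1497 CPM at PPE week 1 and 1905 to 2288 CPM in saline. Both PPE groups lay below saline, with 3 markers called lower at PPE week 2 and 4 at PPE week 1, and between the PPE weeks 3 were called higher at PPE week 2. Of 8 activated fibroblast markers, 2 were called lower at PPE week 2 and 1 at PPE week 1 against saline, and 1 was lower at PPE week 2 than at PPE week 1. Of 8 endothelial markers, 1 was called, Vwf, higher at PPE week 2 than at PPE week 1, and Pecam1 and Tek were listed at 0. Against saline edgeR, DESeq2 and limma-voom called 0 endothelial markers, with 1 at an unadjusted p under 0.05 at each PPE week. Of 7 adipocyte markers edgeR called 0 in any comparison, although 2 had an unadjusted p under 0.05 between the PPE weeks and DESeq2 called 1 of them.

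**Figure D3:**
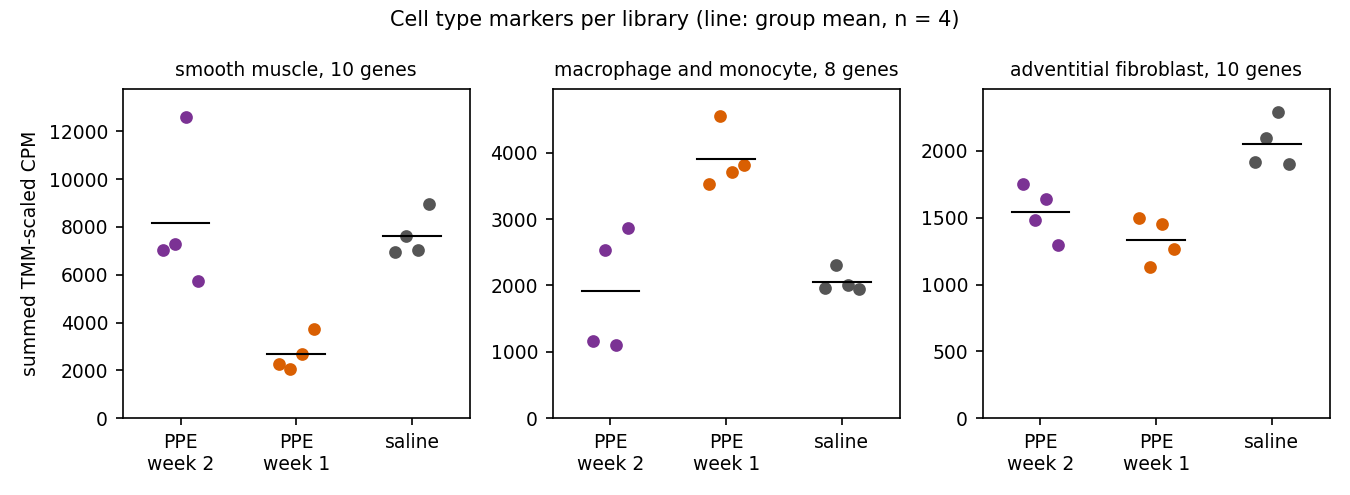
Summed TMM-scaled CPM (vertical axes, from 0) of the tested markers of smooth muscle, of macrophages and monocytes, and of adventitial fibroblasts at PPE week 2, PPE week 1 and in saline. Points are libraries and lines group means. Smooth muscle markers stood at 2045 to 3725 CPM at PPE week 1, below the other groups, and macrophage markers at 3530 to 4551 CPM, above them.

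Loxl3, which acts on collagen and elastin and is needed in mice for palate and muscle attachment, had 49.1, 96.5, 80.0 and 108 CPM at PPE week 2. It had 95.6, 112, 116 and 105 CPM at PPE week 1, and 83.8, 66.3, 88.9 and 92.1 CPM in saline. All PPE week 1 libraries were above all saline libraries, while PPE week 2, at 49.1 to 108 CPM, overlapped with both. The PPE week 2 range was set by replicate 1, at 49.1 CPM, and replicate 4, at 108 CPM.

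None of the differences of Loxl3 passed the test. The log2 fold change was 0.37 ± 0.20 at PPE week 1 against saline (95% interval -0.04 to 0.79; adjusted p = 0.295 by edgeR), and 12.1% of all accessions were higher without overlap in that comparison. At PPE week 2 it was 0.01 ± 0.20 against saline (adjusted p = 0.990) and -0.36 ± 0.20 against PPE week 1 (95% interval -0.78 to 0.05; adjusted p = 0.323). Htra2, whose reads overlap those of Loxl3 in part, averaged 27.6 ± 9.92 CPM at PPE week 2, 24.2 ± 3.32 CPM at PPE week 1 and 15.1 ± 7.03 CPM in saline (SD, n = 4). Its adjusted p was 0.174 at PPE week 2 and 0.240 at PPE week 1 against saline, and its part in the Loxl3 levels was not tested.

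Loxl1, which is tethered to elastic fibres by fibulin-5 and cross-links elastin there, had 237, 217, 418 and 276 CPM at PPE week 2. It had 232, 198, 253 and 257 CPM at PPE week 1, and 202, 224, 344 and 247 CPM in saline. The 3 groups overlapped, and the highest library of PPE week 2 and that of saline were both replicate 3. The labels do not say that this number ties animals together. The log2 fold change was 0.18 ± 0.20 at PPE week 2 against saline (95% interval -0.25 to 0.60; adjusted p = 0.736 by edgeR). It was -0.11 ± 0.20 at PPE week 1 against saline (95% interval -0.53 to 0.31; adjusted p = 0.824) and 0.29 ± 0.20 between the PPE weeks (95% interval -0.13 to 0.71; adjusted p = 0.463). Without replicate 3 of PPE week 2 the difference of Loxl1 from saline was -0.07, and without replicate 3 of saline its difference at PPE week 1 was 0.07, so 1 library set the sign in each.

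Lox, the founding member and the main cross-linking enzyme of large arteries, had 13.0, 6.14, 10.4 and 7.70 CPM at PPE week 2. It had 15.5, 10.8, 12.6 and 11.6 CPM at PPE week 1, and 6.27, 6.70, 8.62 and 12.04 CPM in saline. The groups overlapped, with 3 saline libraries below every PPE week 1 library and replicate 4 of saline among them. These levels rest on 45 to 169 counts per library, against 1495 to 3678 for Loxl2. The log2 fold change was 0.15 ± 0.35 at PPE week 2 against saline (95% interval -0.59 to 0.88; adjusted p = 0.889 by edgeR). It was 0.59 ± 0.35 at PPE week 1 against saline (95% interval -0.15 to 1.33; adjusted p = 0.361) and -0.44 ± 0.35 between the PPE weeks (95% interval -1.17 to 0.29; adjusted p = 0.530).

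Some genes with several accessions appear to be undercounted in the deposited table. Of coding genes with several accessions, 28.7% were at 0 in all libraries, against 21.0% of those with 1 accession, and Gapdh, which every cell uses, had 2 counts in all. Lox has 3 accessions, of which NM_010728 held all 1257 counts and the other 2 were at 0 in all 12 libraries. NM_010728 and one of the others pair with the same GENCODE transcript, so bases of its own could not be told, and whether Lox is undercounted was not tested. The 2 accessions of Loxl4 have 3 of 2617 and 1124 of 3738 bases that the other lacks, and the longer of them was at 0 despite these 1124 bases. The files do not show whether Loxl4 RNA was absent or not counted, and no fold change was computed.

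Against saline, edgeR called 0 of the 4 tested members at PPE week 2 and 0 at PPE week 1, where 2.65% and 7.89% of all accessions were called. At an unadjusted p under 0.05 there was 1 member in each comparison, Loxl2 both times, lower at PPE week 2 and higher at PPE week 1. Its p by edgeR ranked 2044 of 12756 accessions at PPE week 2 and 1503 at PPE week 1. Many other accessions thus passed that threshold too. DESeq2 and limma-voom called 0 members in either comparison. Loxl2 at PPE week 2 and Loxl3 at PPE week 1 were the members whose libraries did not overlap with saline, and 4.44% of all accessions were lower without overlap in the comparison of PPE week 2.

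**Figure D4:**
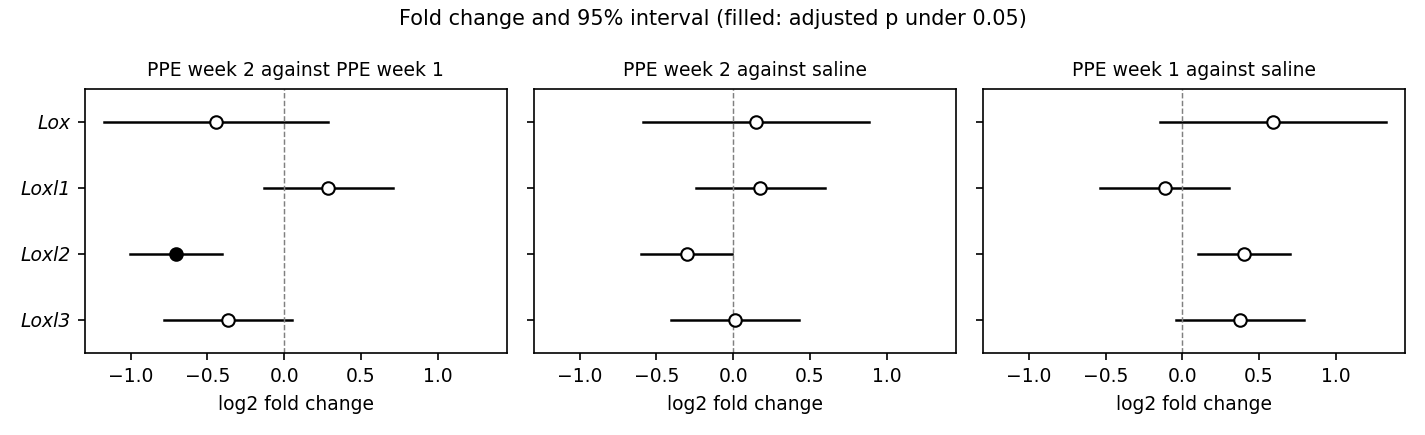
Log2 fold change of the 4 tested lysyl oxidase genes (rows) with 95% intervals in the 3 comparisons. The filled point, Loxl2 at PPE week 2 against PPE week 1 at -0.71, has an adjusted p under 0.05, and the 11 open points do not.

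To set members beside each other, the level was divided by transcript length. Loxl1 averaged 87.0 ± 27.5 CPM per kilobase at PPE week 2, 71.2 ± 8.14 at PPE week 1 and 77.1 ± 18.9 in saline (SD, n = 4). Loxl2 averaged 58.0 ± 8.20 CPM per kilobase at PPE week 2, 94.6 ± 17.6 at PPE week 1 and 71.5 ± 1.33 in saline. The ranges of Loxl1 and Loxl2 overlapped in each group, so that neither ranked first beyond the spread. Loxl3, at 20.3 ± 6.23, 26.2 ± 2.19 and 20.2 ± 2.81 CPM per kilobase in the same order of groups, lay below both in every library. Lox came last, with 1.96 ± 0.64, 2.67 ± 0.43 and 1.77 ± 0.55 CPM per kilobase. Whether Lox is undercounted was not tested, so its place rests on the counts as deposited.

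The order of Loxl1 and Loxl2 depends on the transcript. The Loxl2 transcript paired with the counted accession has 3042 bases, and the longest Loxl2 transcript in GENCODE has 5316, which would put Loxl2 at 33.2 ± 4.69, 54.1 ± 10.1 and 40.9 ± 0.76 CPM per kilobase and below Loxl1 on average in each group. With the paired transcripts, Loxl2 made up 35.2% ± 6.30 of the summed CPM per kilobase of the family at PPE week 2, 48.3% ± 6.66 at PPE week 1 and 42.4% ± 5.08 in saline. Loxl1 made up 51.4% ± 8.38 at PPE week 2, 36.8% ± 5.39 at PPE week 1 and 44.7% ± 5.59 in saline. Loxl3 took 12.2% ± 3.51, 13.5% ± 1.93 and 11.9% ± 1.54 in that order, and Lox 1.22% ± 0.55, 1.37% ± 0.19 and 1.04% ± 0.30. Any undercount of Lox, which was not tested, would also bear on these shares.

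A ratio of counts within a library depends on neither the scaling nor the transcript's length when it is compared between groups. There were 0.627, 0.964, 0.419 and 0.625 Loxl2 counts per Loxl1 count at PPE week 2. There were 1.46, 1.61, 0.860 and 1.08 at PPE week 1, and 1.07, 0.993, 0.620 and 0.882 in saline. The PPE week 2 and PPE week 1 libraries overlapped only through replicate 2 of PPE week 2 and replicate 3 of PPE week 1. Loxl3 counts per Loxl1 count averaged 0.309 ± 0.128 at PPE week 2, 0.462 ± 0.0720 at PPE week 1 and 0.336 ± 0.0711 in saline. Both ratios are descriptions and were not tested.

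**Figure D5:**
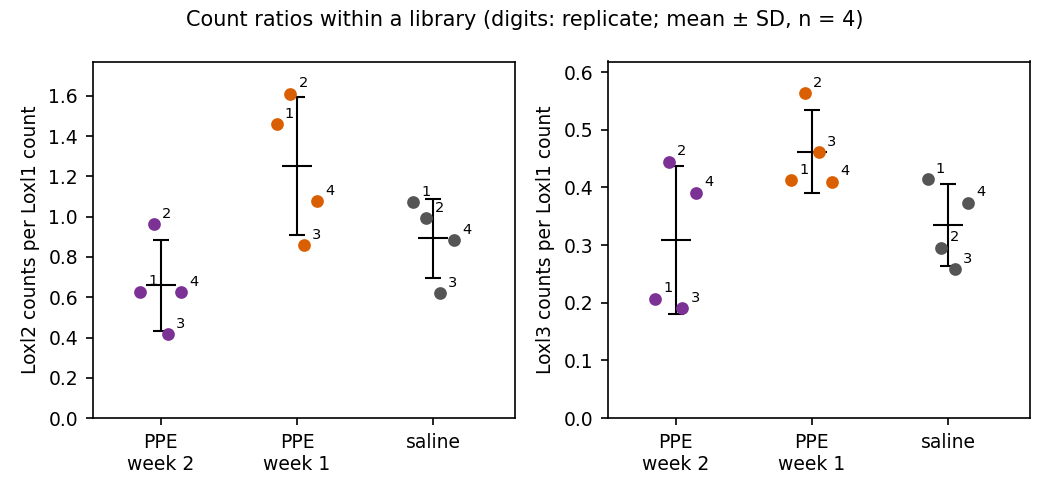
Loxl2 counts per Loxl1 count (left) and Loxl3 counts per Loxl1 count (right) within each library at PPE week 2, PPE week 1 and in saline. Points are libraries with their replicate number, and bars are mean ± SD of 4 libraries. The ratio of Loxl2 to Loxl1 averaged 0.659 at PPE week 2, 1.25 at PPE week 1 and 0.892 in saline.

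The remaining results concern genes that act with these enzymes, taken as lists, whose counts are set beside the share of all accessions called: 6.59% between the PPE weeks, 2.65% at PPE week 2 and 7.89% at PPE week 1 against saline. By direction, 3.77% were called higher and 2.82% lower between the PPE weeks, 1.3% higher and 1.35% lower at PPE week 2, and 3.98% higher and 3.91% lower at PPE week 1. The median log2 fold change over all accessions was 0.02, 0.05 and 0.0027 in the same order. Lists were not tested as a whole. Genes named as changed are those whose call held when each of the 12 libraries was left out in turn.

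Of 9 tested genes that cut the propeptide of lysyl oxidases or bring the enzymes to their substrates, edgeR called 0 between the PPE weeks, with 1 at an unadjusted p under 0.05 and 0 by DESeq2 or limma-voom. It called 1 lower in each comparison with saline, a call that did not hold in every leave-out. This was the same gene in both, and it is also counted among the activated fibroblast markers called lower against saline. The median log2 fold change of the 9 genes was -0.11 between the PPE weeks, -0.05 at PPE week 2 and 0.15 at PPE week 1. Bmp1, the protease that releases active Lox, averaged 19.8 ± 5.19 CPM at PPE week 2, 21.4 ± 5.38 CPM at PPE week 1 and 15.02 ± 7.55 CPM in saline. Pcolce, which enhances the action of Bmp1 on procollagen, averaged 325 ± 19.2, 339 ± 25.01 and 305 ± 46.6 CPM in the same order of groups. Fmod, a collagen-binding proteoglycan that directs Lox to its sites, averaged 265 ± 136, 209 ± 64.2 and 144 ± 72.2 CPM. The adjusted p of these 3 genes lay between 0.321 and 0.906.

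Copper reaches the enzymes through the importer Slc31a1 and the pump Atp7a, which loads it onto secreted enzymes. Slc31a1 averaged 48.5 ± 25.7 CPM at PPE week 2, 66.5 ± 8.002 CPM at PPE week 1 and 45.0 ± 11.2 CPM in saline, with no call, and Atp7a was listed at 0 and not tested. Of 7 tested genes of copper supply, 1 was called higher at each PPE week relative to saline. Between the PPE weeks edgeR called 0, where 1 had an unadjusted p under 0.05, DESeq2 called 1 and limma-voom 0. The list's median was -0.12 between the PPE weeks, 0.46 at PPE week 2 and 0.71 at PPE week 1. The call that held was Mt1, a metallothionein that binds copper and zinc, which averaged 130.1 ± 50.8 CPM at PPE week 2 and 44.7 ± 10.7 CPM in saline (log2 fold change 1.54 ± 0.27, adjusted p = 0.00769 by edgeR). With the ribosomal precursor share as covariate the fold change was as large, 1.60 ± 0.61, but its SE was wider and the call was lost (adjusted p = 0.741).

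Elastin and its scaffold are the substrate and the docking surface of Lox and Loxl1. Eln averaged 8984 ± 4607 CPM at PPE week 2, 4035 ± 755 CPM at PPE week 1 and 6186 ± 1852 CPM in saline, and no comparison of Eln passed the test by edgeR. Between the PPE weeks its log2 fold change was 1.15 ± 0.35 (adjusted p = 0.0828), and DESeq2 (adjusted p = 0.00140), limma-voom (0.0400) and library size alone (0.0405) called it. It was also called without replicate 1 of PPE week 2, at 1.39 (adjusted p = 0.0213), and was 0.77 without replicate 3 of PPE week 2. Against saline at PPE week 2 it was 0.54 ± 0.35, with 0.16 without that replicate 3 and 0.78 without replicate 1, and it was not called. Fbln5, which tethers Loxl1, averaged 543 ± 233 CPM at PPE week 2, 252 ± 54.9 CPM at PPE week 1 and 428 ± 113 CPM in saline. Its adjusted p was 0.0361 between the PPE weeks, but that call was lost in 6 of 12 leave-outs, where the adjusted p reached 0.127. Efemp2, which brings Lox to tropoelastin, and Ltbp4 had 44 and 46 counts over all libraries and were not tested.

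Of 16 tested elastic fibre genes, 2 were called higher and 4 lower between the PPE weeks, 1 higher and 2 lower at PPE week 2, and 2 higher and 1 lower at PPE week 1 against saline. Of these, 1 and 1, 0 and 1, and 1 and 0 held in every leave-out. Fbn1, which forms microfibrils, fell to 1428 ± 172 CPM at PPE week 2, against 2279 ± 104 CPM at PPE week 1 (log2 fold change -0.67 ± 0.11, adjusted p = 0.00172 by edgeR) and 2259 ± 219 CPM in saline (-0.66 ± 0.11, adjusted p = 0.00420). Ltbp3, a binding protein of latent TGF-beta, averaged 391 ± 50.7 CPM at PPE week 2 and 205 ± 17.5 CPM at PPE week 1 (0.93 ± 0.13, adjusted p = 0.00109). Emilin2, a glycoprotein of elastic fibres, averaged 141 ± 35.2 CPM at PPE week 1 and 50.8 ± 10.6 CPM in saline (1.48 ± 0.29, adjusted p = 0.00886). The macrophage markers were higher in that comparison too, and their part was not tested. The medians of the list were 0.04 between the PPE weeks, 0.26 at PPE week 2 and -0.15 at PPE week 1. On library size alone, which moved the median of all accessions by 0.54 at PPE week 2, the difference of Fbn1 from saline was -0.16 and was not called. Over the 11 settings other than leave-outs, Fbn1 between the PPE weeks ran from -0.70 to -0.47 and was called in 9. Ltbp3 between the PPE weeks was called in every setting. With the precursor share as covariate the calls of Fbn1 and Emilin2 were lost at fold changes that stayed close, -0.66 between the PPE weeks (adjusted p = 0.0545) and -0.62 against saline (0.739) for Fbn1, and 1.70 for Emilin2 (0.0870).

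Fibrillar collagens are the other main substrate. Of 7 tested, 2 were called lower at PPE week 2 than at PPE week 1, neither in every leave-out, and edgeR called 0 at PPE week 2 and 0 at PPE week 1 against saline. At an unadjusted p under 0.05 there was 1 lower at PPE week 2 and 1 higher at PPE week 1, and DESeq2 and limma-voom called 0 in both. All 7 had a fold change below 0 between the PPE weeks, with a median of -0.35, and the median was -0.22 at PPE week 2 and 0.20 at PPE week 1. Col1a1 averaged 24208 ± 5234 CPM at PPE week 2, 29994 ± 3388 CPM at PPE week 1 and 22800.4 ± 3179.6 CPM in saline. Col3a1 averaged 20384 ± 3376, 25995 ± 3450.2 and 23751 ± 3701 CPM in the same order. The adjusted p of Col1a1 and Col3a1 lay between 0.0951 and 0.824.

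Of 5 tested type IV collagen chains, which form basement membranes, 3 were called higher at PPE week 2 than at PPE week 1, 2 of them in every leave-out. Against saline 1 was called higher at PPE week 2, not in every leave-out, and 3 were called lower at PPE week 1, 2 of them in every leave-out. The 5 chains summed to 1562 to 2674 CPM at PPE week 2, 1099 to 1370 CPM at PPE week 1 and 1228 to 1387 CPM in saline. The sums of PPE week 1 and saline thus overlapped. Col4a1 had 11 counts over all libraries and was not tested. Col4a4 averaged 53.3 ± 33.1 CPM at PPE week 2, 8.28 ± 3.25 CPM at PPE week 1 and 36.4 ± 16.7 CPM in saline. Its log2 fold change was 2.68 ± 0.45 between the PPE weeks (adjusted p = 0.00369 by edgeR) and -2.13 ± 0.44 at PPE week 1 (adjusted p = 0.0108). Col4a6 averaged 139 ± 62.3 CPM at PPE week 2, 39.6 ± 13.0 CPM at PPE week 1 and 195 ± 18.7 CPM in saline, with 1.81 ± 0.32 between the PPE weeks (adjusted p = 0.00620) and -2.29 ± 0.33 at PPE week 1 (adjusted p = 0.00213). Between the PPE weeks Loxl2, which acts on this collagen, was lower while Col4a4, Col4a6 and the smooth muscle markers were higher, and the part of smooth muscle in the collagen differences was not tested. The medians of the list were 1.81, 0.19 and -2.13 in the order of the comparisons. With the precursor share as covariate these 4 calls were lost at an adjusted p of 0.0531 to 0.121, while the fold changes stayed about as large, 2.28 and -2.51 for Col4a4 and 1.81 and -2.29 for Col4a6.

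Lysine residues are hydroxylated by the Plod enzymes before lysyl oxidases act on them. Of 15 tested genes of collagen lysine and proline modification, 2 were called lower between the PPE weeks and 2 lower at PPE week 2 against saline, 1 of each in every leave-out, and 1 was called higher at PPE week 1, also in every leave-out. The medians were -0.17, 0.05 and 0.17. Plod3 averaged 123 ± 6.56 CPM at PPE week 2, 185 ± 35.6 CPM at PPE week 1 and 108 ± 22.5 CPM in saline, with a log2 fold change of 0.77 ± 0.16 at PPE week 1 (adjusted p = 0.00855 by edgeR). Plod1 averaged 164 ± 22.9, 168 ± 12.6 and 149 ± 19.7 CPM and was not called. Plod2 averaged 5.81 ± 1.86, 10.0 ± 3.83 and 17.2 ± 4.20 CPM, with an adjusted p of 0.0376 at PPE week 2 against saline that was lost in 7 of 12 leave-outs. P4hb, a subunit of prolyl 4-hydroxylase, fell to 542 ± 42.8 CPM at PPE week 2, against 766 ± 45.2 CPM at PPE week 1 (-0.50 ± 0.10, adjusted p = 0.00883) and 789 ± 75.2 CPM in saline (-0.54 ± 0.10, adjusted p = 0.0111). On library size alone the fall of P4hb against saline was -0.05 and was not called. Over the 11 settings other than leave-outs, P4hb between the PPE weeks ran from -0.53 to -0.29 and was called in 9. With the precursor share as covariate the calls were lost, for Plod3 at a fold change of 0.79 (adjusted p = 0.122), and for P4hb at -0.43 between the PPE weeks (0.182) and -0.39 against saline (0.856).

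Copper amine oxidases outside the family use another cofactor and do not cross-link matrix. Of the 2 tested, 1 was called, Aoc3, the vascular adhesion protein that smooth muscle and endothelium carry. It averaged 319 ± 119 CPM at PPE week 2, 113 ± 12.02 CPM at PPE week 1 and 241 ± 33.6 CPM in saline. The log2 fold change was 1.50 ± 0.21 between the PPE weeks (adjusted p = 0.00109 by edgeR) and -1.10 ± 0.21 at PPE week 1 against saline (adjusted p = 0.00571), and with the precursor share as covariate they were 1.43 (adjusted p = 0.0499) and -1.18 (0.0812), so that the second call was lost at about the same size. At PPE week 2 against saline edgeR, DESeq2 and limma-voom called 0 of the 2, and 0 had an unadjusted p under 0.05. The smooth muscle markers differed in the same direction as Aoc3 in both comparisons, and their part in its differences was not tested.

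The genes whose log2 level was most like that of each member over the 12 libraries were listed as a description, by Pearson's r, in libraries that share their groups and their scaling. For Loxl2 these were H4c11 (r = 0.946), a histone gene with near-identical copies whose counts are uncertain, Eef1b2 (0.920), a translation elongation factor, Jak3 (0.914), Sf3b3 (0.910), a splicing factor, and Enc1 (0.907). For Loxl3 they were Ascc3 (0.969), H1f1 (0.945), Tlr2 (0.938), Morc3 (0.935) and Siglece (0.935), among which Tlr2 and Siglece are receptors of innate immune cells. For Loxl1 the values were lower, with Cst3, a secreted protease inhibitor, at 0.837, followed by Efcab7, Cercam, Zfp697 and Rnft1 down to 0.809. For Lox they were Sidt2, Pax9, Cxadr, Srl and 4930404I05Rik, from 0.908 to 0.857, at mean levels of 0.723 to 4.54 CPM, where few counts set each value. No gene stood in more than 1 of these 4 lists of 5.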

How the data were processed

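The authors deposited raw counts per RefSeq accession for 12 aorta libraries, and tables of their own comparisons with log2 fold changes and p-values. Per the labels' protocols, RNA was extracted with TRIzol and libraries were made with TruSeq v2, which records no strand. Per the submitters' processing notes, bcl2fastq, DESeq2 and mm10 were used, while no source used here names the aligner or the counting tool. Accessions were named by RefSeq's table for GRCm38.p6 (34419 of 34755) and GENCODE (197), and 139 stayed unnamed.

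Counts were analysed with edgeR 4.0.16 in R 4.3.3: filterByExpr with its defaults, TMM scaling, a robust quasi-likelihood fit of 12 libraries with 1 mean per group, two-sided tests and Benjamini-Hochberg adjustment over 12756 accessions. Intervals are 95% and use the model's degrees of freedom. The procedure was tested on simulated data. Alternatives used DESeq2 1.42.0, limma-voom 3.58.1, other scalings, filters and libraries, a replicate block and the ribosomal precursor share as covariate. Precision is limited by 4 libraries per group, and by counting error for Lox.

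The family and all gene lists were chosen with earlier results of these data known. All 5 members were named, with the listed genes whose calls held in each leave-out and a set of always-named partners. As most alike, the 5 genes with the highest Pearson r were named, from log2 CPM with a prior count of 2.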

Additional observations from a re-analysis of the deposited data

Results flagged for a closer look

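The response of Loxl2 against saline differed between the PPE weeks, by -0.71 on the log2 scale as PPE week 2 minus PPE week 1, with an adjusted p of 0.00690 by edgeR. This is the same test as the comparison of the PPE weeks, since both share the saline libraries. All 4 PPE week 2 libraries were below all 4 PPE week 1 libraries, and the cause was not tested.

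In saline, replicate 4 stood apart in the share of Lox in the family's summed CPM per kilobase, at 1.48%, while the other 3 libraries had 0.856 to 0.920%. Its gap to the nearest library was 0.898 of the group's range, above the 95% critical value of Dixon's test. A total of 33 such groups were looked at and chance passes about 1 in 20 of them.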

How the results depend on the processing

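The fall of Loxl2 between the PPE weeks kept its direction in 23 alternatives and was called in 21. It was -0.47 on library size alone and -0.52 with the ribosomal precursor share as covariate, each leaving 0 members called, and -0.83 to -0.63 over the leave-outs, with adjusted p of 0.00417 to 0.0339. The precursor share differs between the groups, so its covariate and the groups cannot be fully told apart.

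At PPE week 1 against saline, 1 member, Loxl2, was called on library size alone (0.66), with only the 8 libraries compared (0.39) and without PPE week 1 replicate 3, so that the leave-outs gave 0 to 1 calls and 0.32 to 0.52. Loxl1 turned to 0.18 on library size alone and ran from -0.21 to 0.070 over the leave-outs. At PPE week 2 against saline, 1 member, Loxl1, was called on library size alone (0.66), where Loxl2 turned to 0.19, and with the covariate Loxl2 turned to 0.063. Over the leave-outs Loxl1 ran from -0.065 to 0.35 and Lox from -0.057 to 0.37. Loxl3, near 0, turned to -0.0027 with DESeq2, -0.032 with limma-voom, -0.0028 with RLE factors, -0.0038 without the filter, -0.0031 with 8 libraries, -0.028 with the replicate block and -0.54 with the covariate, and ran from -0.14 to 0.19 over the leave-outs. Library size alone moved the median of all accessions by 0.28 at PPE week 1 and 0.54 at PPE week 2, and relative to these medians Loxl1 stood at -0.10 at PPE week 1 and at 0.12 at PPE week 2, and Loxl2 at -0.35 at PPE week 2. The cause of the turns was not tested.

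Among the partners, Fbn1 at PPE week 1 turned to -0.0045 with DESeq2 and with RLE factors, Fbln5 at PPE week 2 to -0.16 with the covariate, and Col3a1 at PPE week 2 to 0.28 on library size alone and 0.23 with the covariate. Between the PPE weeks, on library size alone and with the covariate, Bmp1 turned to 0.13 and 0.49 and Pcolce to 0.14 and 0.066, and Plod1 turned to 0.17 on library size alone.

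Over the leave-outs, Bmp1 ran from -0.30 to 0.013, Fmod from -0.047 to 0.57 and Plod1 from -0.14 to 0.023 between the PPE weeks. Col1a1 ran from -0.053 to 0.17 and Slc31a1 from -0.31 to 0.32 at PPE week 2, and Fbn1 from -0.048 to 0.063 at PPE week 1.

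The labels do not say that replicate numbers pair animals. Over 12 same-numbered pairs the correlation of deviations was -0.088 to 0.035, and 0 were over 0.1. With the replicate block Loxl2 kept its call between the PPE weeks, at -0.70 and an adjusted p of 0.0121. Accessions called numbered 1007 at PPE week 1 (82 to 2026 over all alternatives), 338 at PPE week 2 (0 to 1638) and 841 between the PPE weeks (69 to 1463). Elastic fibre genes called at PPE week 1 numbered 3 with edgeR, 6 with DESeq2 and 3 with limma-voom, and copper supply genes 1, 2 and 0. Lox had the fewest counts of the tested members, 45 to 169 per library.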
